A study of Drosophila mojavensis with 95 samples.

Results

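The effect of the rearing cactus on transcript levels was examined in females of Drosophila mojavensis from Organ Pipe National Monument (OPNM, spelled "Organ Pipe National Manument" in the labels) after 9 h of desiccation. The comparison set 4 arrays of flies reared on medium made from organ pipe cactus against 4 arrays of flies reared on medium made from agria cactus, and the 8 arrays were chosen by their labels out of 95 in the series. Drosophila mojavensis is a cactophilic fly, whose larvae and adults live in and feed on rotting cactus tissue. On the Sonoran mainland its main host is organ pipe cactus, and in Baja California it is agria. Rots of these cacti differ in their sugars, lipids and volatile compounds. Desiccation removes access to water and food, and flies lose water mainly through the cuticle and through respiration.

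All flies in the series were wild-type virgin females, measured as whole organisms on one-colour NimbleGen arrays labelled with Cy3, so a transcript made by fewer cells and one made at a lower level per cell cannot be told apart. The series crossed 4 populations, 2 rearing cacti and 3 desiccation times (0, 9 and 18 h). Besides the 8 arrays, the comparisons below drew on OPNM flies at 0 h (4 arrays from organ pipe and 4 from agria) and at 18 h (4 and 5 arrays). They also drew on 9 h flies of Punta Onah in Sonora (4 and 4 arrays), and of Punta Prieta (4 and 4) and San Quintin (4 and 3) in Baja California. The 9 h flies had all been desiccated, and no flies held for 9 h without desiccation were analysed here. The source field gives every array a stock number of its own, so whether the arrays of a group came from the same stock was not settled. The labels do not say whether replicates were separate cultures, and the p-values therefore measure the spread between these arrays, which may be technical.

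The table holds 14528 transcripts, as log2 values between 4.52 and 15.65. The transcripts carry FlyBase transcript identifiers, and 0 of them were found in the RefSeq gene table of this species, so transcripts are given by identifier, without gene names or functions. No gene group could be counted for the same reason. The 8 arrays were each nearest to OPNM among the 4 populations, over the 500 transcripts that varied most between populations. When each was set against the time profiles averaged over the other 3 populations, 7 of the 8 matched 9 h best. The exception was agria replicate 3, which correlated with the 18 h profile at 0.332 and with the 9 h profile at 0.324. Among the OPNM arrays used for comparison, agria replicate 4 at 18 h was nearest to the 0 h profile.

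Rearing cactus was associated with a small set of called transcripts at 9 h, nearly all of them higher in organ pipe-reared flies. In a limma fit of all 24 groups, with Benjamini-Hochberg adjustment over all transcripts and a threshold of 0.05, 38 of 14528 transcripts (0.262%) were called. Of these, 35 (0.241%) were higher and 3 (0.0206%) were lower in organ pipe-reared flies. The 35 differed by 0.29 to 1.61 on the log2 scale, with a median of 0.73, or 1.66-fold. Past 1.5-fold were 27 of the 35, and past 2-fold were 2. Over all transcripts, called or not, 963 were past 1.5-fold and 14 past 2-fold in either direction. The 3 lower transcripts differed by -0.45 to -0.52. At an unadjusted p under 0.05 stood 4217 transcripts (29.0%), of which 2202 were higher and 2015 lower in organ pipe-reared flies. For a typical transcript, with 4 arrays a side, the 95% confidence interval of the difference reached 0.281 log2 units to either side (median). That interval is not adjusted for the number of transcripts, so a call needed a larger difference for such a transcript. The called transcript FBtr0167617, for instance, had an unadjusted limma p of 1.09e-04 and an adjusted p of 0.0481.

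The 35 transcripts were even among the organ pipe arrays and uneven among the agria arrays. Their median level was 10.84, 10.95, 10.95 and 10.78 on organ pipe arrays 1 to 4, against 10.35, 9.98, 9.63 and 10.33 on agria arrays 1 to 4 (log2). The highest agria array was thus below the lowest organ pipe array. For single transcripts the 4 and 4 arrays did not overlap in 33 of the 35, beside 1292 of all transcripts (8.89%) without overlap and higher on organ pipe. Agria replicate 3 was the lowest of the agria arrays for 32 of the 35, and agria replicate 1 was the highest for 27. The median standard deviation of the 35 was 0.160 on organ pipe and 0.309 on agria. The 3 lower transcripts mirrored this: the 4 and 4 arrays had no overlap for any of the 3 (9.37% of all transcripts did not overlap and were lower on organ pipe), and among the agria arrays replicate 3 was highest and replicate 1 lowest for each.

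**Figure D1:**
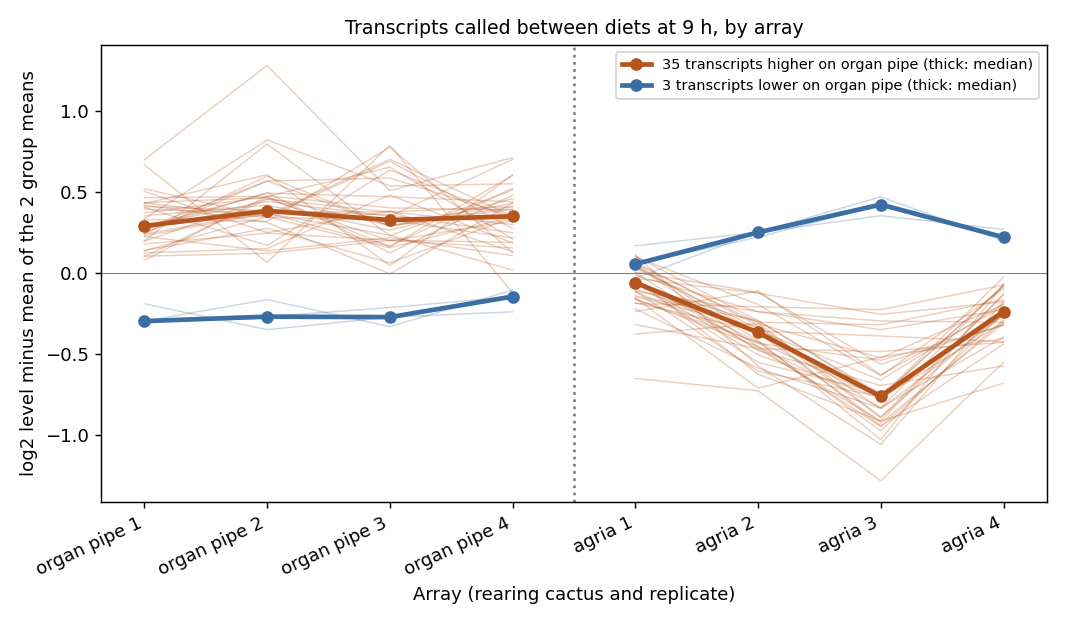
Log2 level of the 38 called transcripts on each of the 8 arrays, minus the mean of the 2 group means, with 1 thin line for each transcript and thick lines for the medians of the 35 higher (orange) and 3 lower (blue) transcripts. Organ pipe arrays stand left of the dotted line and agria arrays right of it; the 35 lie level across organ pipe and are lowest on agria replicate 3.

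FBtr0163932 had the largest difference among the called transcripts whose arrays did not overlap. Its level was 9.95, 10.53, 9.76 and 9.96 on the organ pipe arrays, against 8.60, 8.52, 7.96 and 8.70 on the agria arrays. Every organ pipe array was above every agria array by more than 1 log2 unit. The difference was 1.61 ± 0.357 (SE), or 3.04-fold, with an adjusted p of 0.0355 from limma. At 0 h the order of the means was the other way, at 8.78 ± 0.712 in organ pipe-reared and 9.33 ± 0.359 in agria-reared flies (SD, n = 4 each), and that difference of -0.55 was not called (limma adjusted p = 0.9999). At 18 h the groups overlapped, at 7.69 ± 0.249 on organ pipe (n = 4) and 7.85 ± 0.229 on agria (n = 5). Set against 0 h, FBtr0163932 rose at 9 h by 1.27 ± 0.357 (SE) in organ pipe-reared flies and fell by 0.89 ± 0.357 in agria-reared flies, with limma adjusted p-values of 0.0198 and 0.0382. These changes share the 9 h arrays by which the transcript was chosen. Tested directly, the difference between them, 2.16 ± 0.505, was not called (limma adjusted p = 0.0731). The change in the diet difference between 9 and 18 h, 1.76 ± 0.492, was not called either (adjusted p = 0.151). In the other 3 populations, averaged over both cacti, FBtr0163932 rose by 1.22 ± 0.150 at 9 h (adjusted p = 4.2e-10).

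FBtr0166447 was the other called transcript past 2-fold, and its arrays did not overlap either. Its level was 11.03, 11.51, 11.23 and 11.24 on the organ pipe arrays, against 10.66, 10.07, 9.78 and 10.01 on the agria arrays. The lowest organ pipe array lay above the highest agria array, agria replicate 1. The difference was 1.13 ± 0.213 (SE), or 2.18-fold (limma adjusted p = 0.00525). With desiccation this transcript fell elsewhere too: over the other 3 populations it fell by 1.06 ± 0.0893 at 9 h and fell by 3.55 ± 0.0886 at 18 h (limma adjusted p = 1.7e-16 and 4.75e-48). In OPNM at 9 h it fell by 1.31 ± 0.213 in agria-reared flies (adjusted p = 1.49e-05). Its change of -0.55 ± 0.213 in organ pipe-reared flies was not called (adjusted p = 0.103). Tested directly, the difference between these changes was 0.77 ± 0.301 (SE) and was not called (limma adjusted p = 0.393). By 18 h FBtr0166447 had a mean of 8.18 ± 0.280 (SD, n = 4) on organ pipe and 8.03 ± 0.272 (n = 5) on agria. Its diet difference of 0.15 at 18 h was not called.

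FBtr0174877 and FBtr0167617 had the largest differences among the 3 called transcripts that were lower on organ pipe; transcripts that were not called differed by as much as -1.13. FBtr0174877 stood at 12.77, 12.61, 12.69 and 12.72 on the organ pipe arrays, against 13.13, 13.21, 13.32 and 13.23 on the agria arrays, a difference of -0.52 ± 0.123 (SE, limma adjusted p = 0.0388). FBtr0167617 stood at 12.64, 12.67, 12.73 and 12.79 on organ pipe, against 13.00, 13.16, 13.36 and 13.16 on agria, a difference of -0.46 ± 0.113 (adjusted p = 0.0481). Neither pair of groups overlapped, and both differences were under 1.5-fold. Both transcripts rose with desiccation in the other 3 populations, by 0.55 ± 0.0512 and 0.62 ± 0.0471 at 18 h (limma adjusted p = 3.29e-15 and 4.42e-19). In OPNM their 18 h means were close on both cacti, at 13.32 on organ pipe and 13.26 on agria for FBtr0174877, and at 13.29 and 13.24 for FBtr0167617.

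**Figure D2:**
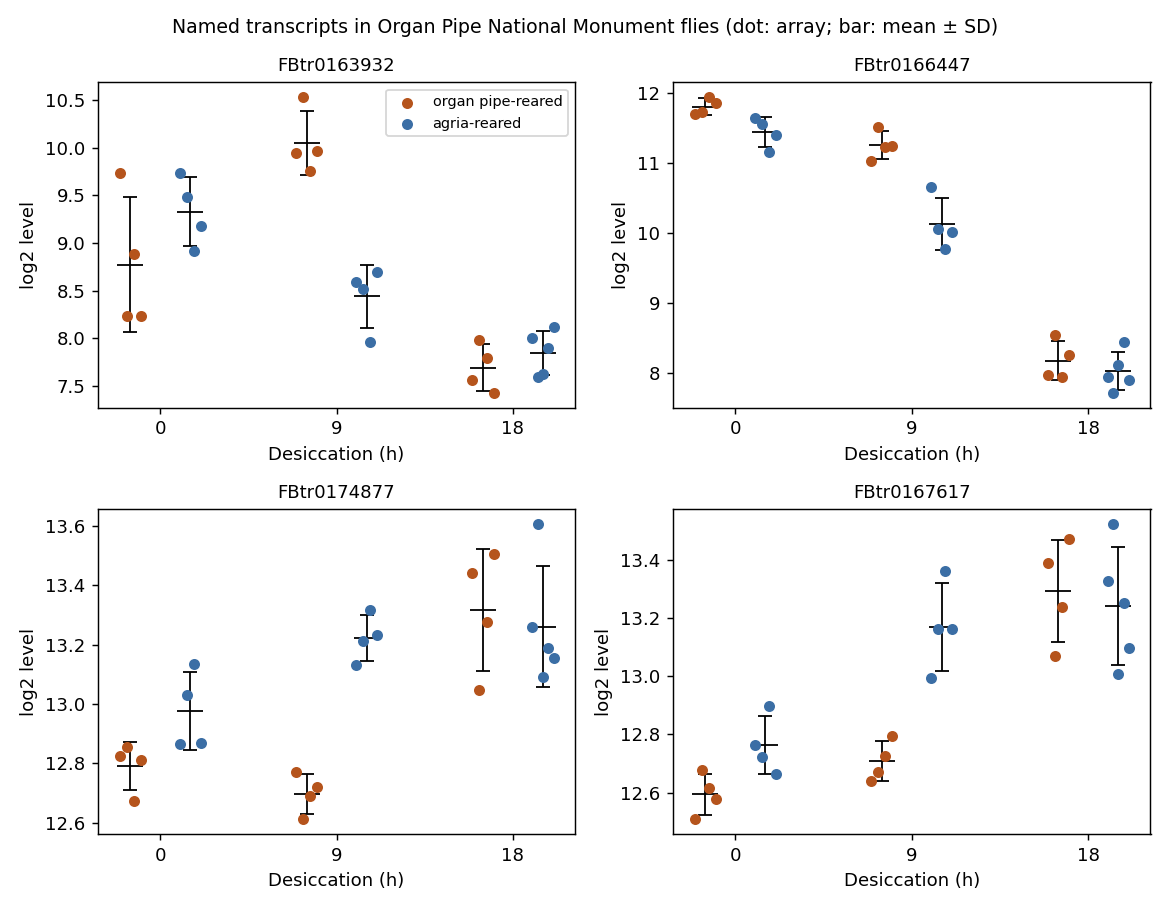
Log2 level of the 4 named transcripts in OPNM flies at 0, 9 and 18 h of desiccation, with organ pipe-reared flies (orange) left of agria-reared flies (blue) at each time, a dot for each array and bars for the mean ± SD. At 9 h the 4 organ pipe dots of every panel are apart from the 4 agria dots, and at 18 h they overlap.

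The count of calls depended on single arrays. Without agria replicate 3, limma called 0 transcripts. The lowest adjusted p was then 0.0868, and 1613 transcripts had an unadjusted p under 0.05. Without agria replicate 1 it called 2186, of which 1247 were higher and 939 lower on organ pipe, and all 38 were among them. Leaving out agria replicate 2 or 4 gave 3 and 17 calls. Leaving out organ pipe replicates 1 to 4 gave 10, 3, 9 and 9 calls. In each of these 8 fits all 38 transcripts kept their direction. For the 33 of the 35 and the 3 lower ones whose arrays did not overlap, leaving out 1 array could not have reversed it. The median difference of the 35 was between 0.60 and 0.83. Leaving out an array of another group also moved the count past 1.5 times in 8 of 40 cases, through the shared estimate of spread and the adjustment, since the 9 h values were the same. These gave 269, 86 and 85 calls without organ pipe replicates 4, 1 and 2 of OPNM at 18 h, 173 without agria replicate 2 at 18 h, and 76 without agria replicate 3 at 0 h. The others were 85 calls without agria replicate 3 of Punta Onah, 71 without agria replicate 4 of Punta Prieta and 64 without organ pipe replicate 2 of Punta Prieta, all at 9 h.

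**Figure D3:**
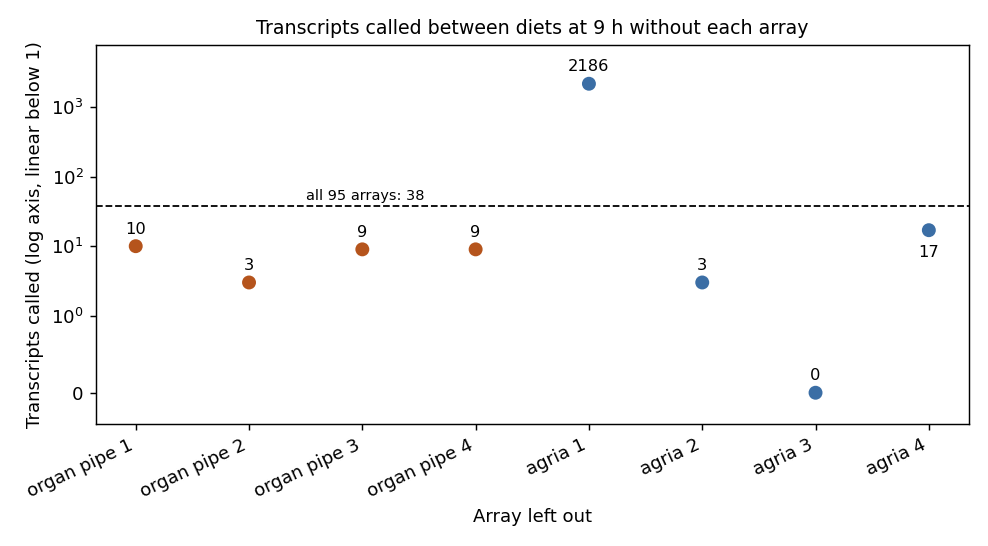
Number of transcripts called between the 2 rearing cacti at 9 h when 1 of the 8 arrays is left out (log axis, linear below 1), with organ pipe arrays (orange) left of agria arrays (blue) and the dashed line at the 38 calls with every array in. Counts run from 0 without agria replicate 3 to 2186 without agria replicate 1.

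The diet difference correlated with the direction in which replicate arrays of the whole series differ from each other. That direction, the first singular vector of the deviations of arrays from their group means, holds 41.8% of the variance within groups and is called the shared axis here. Across transcripts, which are not independent replicates, the diet difference at 9 h correlated with it at 0.886. The axis computed from the other 87 arrays alone gave 0.882. Such correlations were not limited to this comparison. In the other combinations of population and time they ran from -0.697 (Punta Onah at 9 h) to 0.844 (San Quintin at 0 h). The weakest were -0.064 in San Quintin at 18 h and -0.109 in OPNM at 0 h. At 9 h the 4 organ pipe arrays of OPNM scored 3.25, 11.7, 4.33 and 11.8 on the shared axis. The 4 agria arrays scored 0.162, -25.1, -55.0 and -20.2. The groups did not overlap, the organ pipe arrays lay close together, and agria replicates 1 and 3 were the extremes of their group. Mean scores were 7.76 ± 4.61 on organ pipe and -25.0 ± 22.8 on agria (SD, n = 4 each), a difference with an exact two-sided permutation p of 0.0286, the smallest that 70 splits allow. Adjusted over the 2 array-wide measures tested, that p was 0.0571.

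The second measure was the standard deviation of values over an array. It was 1.962 ± 0.00893 on organ pipe and 1.896 ± 0.0539 on agria (SD, n = 4 each; exact permutation p = 0.0857), and this difference did not pass the test. The spread between replicate arrays was also unequal. The median transcript had a standard deviation of 0.125 among the organ pipe arrays and 0.184 among the agria arrays, and it was the larger on agria in 69.0% of transcripts. Ranked from the widest of the 24 groups, agria at 9 h was number 7 and organ pipe at 9 h number 21.

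With the shared axis subtracted from every array, 4 transcripts were called, all higher on organ pipe and all among the 38. All 38 kept their direction, with a median difference of 0.49 over the 35 and -0.28 over the 3. Removing the axis of the other 87 arrays instead, a choice made after seeing the data, gave 6 calls, 5 of them among the 38. FBtr0166447 was called with the axis removed (0.94, limma adjusted p = 0.0363), and FBtr0163932 was not (1.41, adjusted p = 0.122). The shared axis cannot be told apart from a broad effect of the rearing cactus in these 8 arrays.

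**Figure D4:**
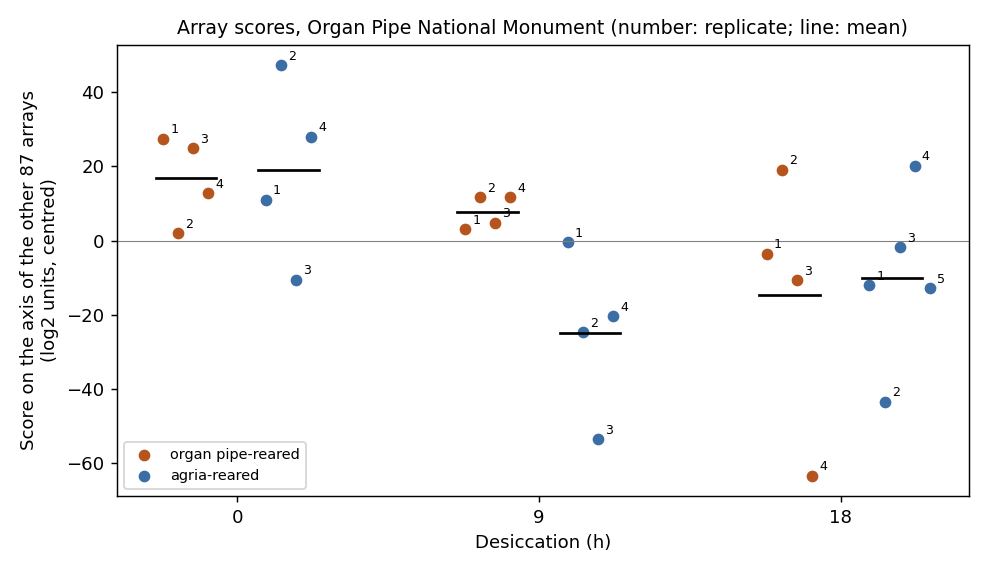
Score of each OPNM array on the shared axis computed from the 87 arrays outside the comparison, by desiccation time, with organ pipe-reared flies (orange) left of agria-reared flies (blue), numbers for replicates and lines for group means. At 9 h the organ pipe arrays lie together above the agria arrays, while at 0 and 18 h the 2 groups overlap.

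The next question was whether the diet difference at 9 h was already present in undesiccated flies. For the 35 transcripts higher on organ pipe at 9 h, the diet difference at 0 h had a median of 0.11, with 27 higher and 8 lower on organ pipe. None of the 35 was called at 0 h by limma, where 14 of all transcripts (0.0964%) were called and 738 had an unadjusted p under 0.05. The median level of the 35 was 10.53 at 0 h and 10.76 at 9 h in organ pipe-reared flies, and 10.45 at 0 h and 10.07 at 9 h in agria-reared flies. Between 0 and 9 h, 4 of the 35 rose and 1 fell in organ pipe-reared flies, where 3.20% of all transcripts rose and 3.24% fell. In agria-reared flies 1 of the 35 rose and 16 fell, where 17.8% of all transcripts rose and 25.9% fell. These time contrasts share the 9 h arrays with the diet comparison and add no independent evidence to it.

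Tested directly, the change in the diet difference between 0 and 9 h was called for 8 transcripts (0.0551%), 4 in each direction, and 0 of the 8 were among the 38. The largest was FBtr0166500, which at 9 h stood at 8.99, 9.01, 8.93 and 8.74 on organ pipe, against 8.78, 9.94, 11.07 and 9.74 on agria. At 0 h it stood at 12.39, 13.98, 14.45 and 13.87 on organ pipe, against 10.09, 8.71, 10.06 and 9.26 on agria. Among these 4 groups it was high in organ pipe-reared flies at 0 h alone, with a diet difference of 4.14 at 0 h and -0.96 at 9 h. In the other populations, however, its 0 h means were 13.64 to 14.51 across both cacti. The group set apart at 0 h was thus agria-reared OPNM flies, with a mean of 9.53 ± 0.669 (SD, n = 4). The change between the diet differences was -5.11 ± 0.831 (SE, limma adjusted p = 2.59e-04). At 18 h it was high on both cacti, with a diet difference of 0.31. All 4 transcripts called in this direction had diet differences of 2.98 to 4.14 at 0 h and of -0.51 to -1.13 at 9 h.

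In the other direction, FBtr0168350 stood at 11.11, 11.35, 11.24 and 11.49 on organ pipe at 9 h, against 10.89, 10.86, 10.73 and 10.87 on agria. Its 0 h levels were 11.23, 10.57, 9.49 and 9.70 on organ pipe, against 11.12, 11.03, 11.09 and 11.31 on agria. The change in the diet difference was 1.35 ± 0.296 (SE, limma adjusted p = 0.0426). Organ pipe replicates 3 and 4 at 0 h were the lowest of these arrays. The 0 h mean of agria-reared OPNM flies, 11.14 ± 0.121 (SD, n = 4), was also above those of the other populations, which were 9.92 to 10.67. That of organ pipe-reared OPNM flies, 10.25 ± 0.802 (n = 4), lay within that range. The call was lost in 13 of the 25 fits that left out 1 array, with a limma adjusted p of 0.388 without organ pipe replicate 3 at 0 h. It was also lost in the OPNM arrays alone (0.562) and with the shared axis removed (0.126), while the call of FBtr0166500 was kept in all 25 fits and in the 8 other alternatives. The 4 transcripts called in this direction had diet differences of -0.89 to -0.72 at 0 h and of 0.28 to 0.46 at 9 h.

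By 18 h the diet difference of the 35 transcripts was small, with a median of -0.08 and with 7 higher and 28 lower on organ pipe. No transcript was called between the cacti at 18 h by limma, and 251 had an unadjusted p under 0.05. The organ pipe arrays at 18 h had the widest spread of the 24 groups (median SD 0.241), with shared axis scores from -63.6 to 18.9. Agria replicate 4 at 18 h was nearest to the 0 h profile. The absence of calls therefore does not show that the cacti no longer differed. The median level of the 35 at 18 h was 9.94 in organ pipe-reared and 10.03 in agria-reared flies. The change in the diet difference between 9 and 18 h was called for 2 transcripts (0.0138%), neither of them among the 38. One was FBtr0161575, at 9.36, 9.36, 9.26 and 9.27 on organ pipe at 9 h, against 8.95, 8.54, 8.42 and 8.84 on agria. At 18 h it was 8.71, 8.83, 8.48 and 8.37 on organ pipe, against 9.10, 8.72, 9.35, 9.29 and 9.23 on agria. Its diet difference was thus 0.63 at 9 h and -0.54 at 18 h, a change of 1.17 ± 0.231 (SE, limma adjusted p = 0.0246). This call was lost in 10 of the 25 fits that left out 1 array, with an adjusted p of 0.183 without agria replicate 3 at 9 h, and in 3 of 8 other alternatives.

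In flies of the other 3 populations, reared on the same cacti and desiccated for 9 h, the diet differences of these 35 transcripts were centred near 0. The median was -0.05 in Punta Onah, with 11 higher and 24 lower on organ pipe. It was -0.05 in Punta Prieta, with 10 higher and 25 lower, and -0.07 in San Quintin, with 9 higher and 26 lower. No transcript was called by limma between the cacti at 9 h in any of these populations, where 114, 394 and 187 transcripts had an unadjusted p under 0.05. At other times the 35 shifted together in some combinations, with none of them called by limma. The median was 0.29 in San Quintin at 0 h, with 34 higher and 1 lower on organ pipe. At 18 h it was -0.28 in Punta Onah, with 1 higher and 34 lower, and 0.11 in Punta Prieta, with 32 higher and 3 lower. In these 3 combinations the diet difference over all transcripts correlated with the shared axis at 0.844, -0.656 and 0.584. At 9 h, where the medians were near 0, it did so at -0.697 in Punta Onah, -0.483 in Punta Prieta and -0.681 in San Quintin. Whether the 35 shifted apart from that axis was not tested. The median of the 35 was 0.08 and 0.12 in Punta Onah and Punta Prieta at 0 h, and -0.003 in San Quintin at 18 h. For FBtr0163932 the 9 h means were 9.43 ± 0.231 on organ pipe and 9.97 ± 0.389 on agria in Punta Onah, and 11.76 ± 0.145 and 11.76 ± 0.150 in Punta Prieta (SD, n = 4 each). In San Quintin they were 11.33 ± 0.657 on organ pipe (n = 4) and 11.51 ± 0.173 on agria (n = 3). The agria-reared OPNM flies, at 8.44 ± 0.329, thus had the lowest mean of the 8 groups at 9 h.

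Tested against the mean of these 3 populations, the diet difference of OPNM at 9 h differed for 35 transcripts (0.241%), 31 of them more positive in OPNM and 4 more negative. Of these, 21 were also called between the cacti in OPNM, namely 20 of the 35 higher and 1 of the 3 lower transcripts. The 2 comparisons share the 8 arrays. Over all transcripts, called or not, the difference from the other populations ran from -1.38 to 1.95. Among the 35 called in this test, FBtr0163932 had the largest positive value, 1.84 ± 0.415 (SE, limma adjusted p = 0.0309). FBtr0162870 had the most negative value among them, -1.08 ± 0.262 (adjusted p = 0.0458). It stood at 8.85, 8.68, 8.88 and 8.78 on organ pipe, against 9.19, 9.67, 10.22 and 9.58 on agria, and its own diet difference in OPNM of -0.87 was just outside the threshold (adjusted p = 0.0526). Leaving out 1 array ended the call of FBtr0162870 in 19 of 31 fits and that of FBtr0163932 in 7, and with the shared axis removed their values were -0.40 and 1.58 (limma adjusted p = 0.675 and 0.212). Without agria replicate 3 of OPNM this comparison called 0 transcripts, with 2462 at an unadjusted p under 0.05, and without agria replicate 1 it called 3410. Set against single populations, limma called 8 transcripts against Punta Prieta (0.0551%), 7 of them among the 35 called higher on organ pipe in OPNM. Against Punta Onah and San Quintin it called 0, with 3044 and 3246 at an unadjusted p under 0.05.

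**Figure D5:**
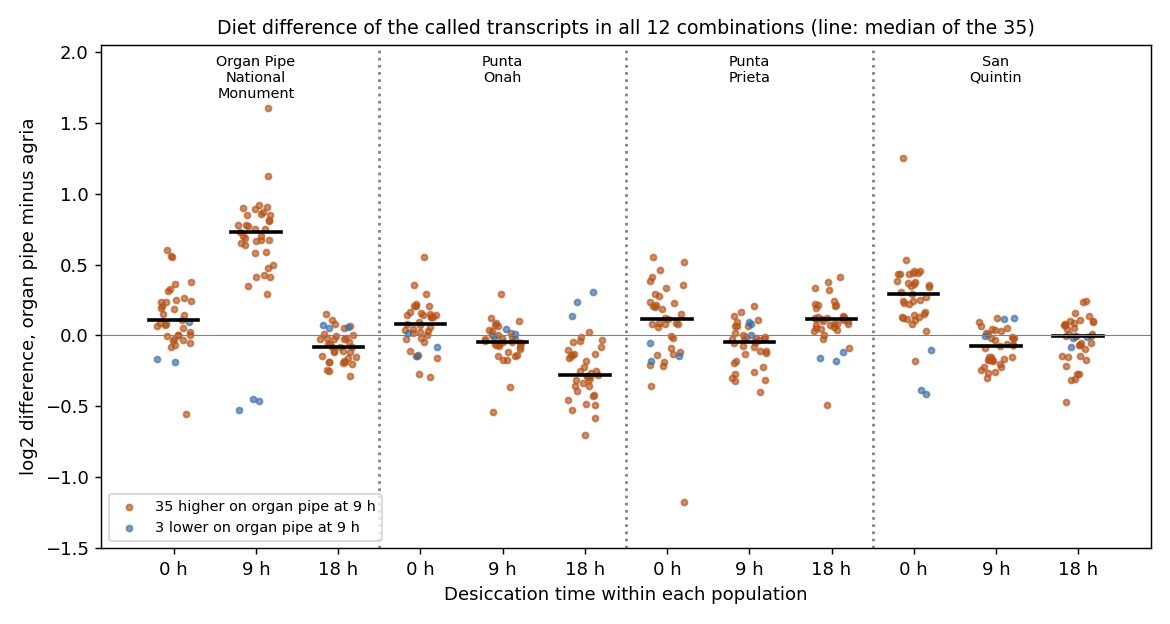
Diet difference (organ pipe minus agria, log2) of the 38 called transcripts in each of the 12 combinations of population and desiccation time, with a dot for each transcript and a black line at the median of the 35 that were higher on organ pipe in OPNM at 9 h. That column was used to choose them. In the other 9 h columns the medians lie between -0.07 and -0.05. In the 0 and 18 h columns of the other populations they lie between -0.28 and 0.29.

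The change of the called transcripts with desiccation was taken from the other 3 populations, because their time differences were not used to choose the 38. Over these, 11 of the 35 rose and 9 fell at 9 h against 0 h, where 22.8% of all transcripts rose and 24.4% fell, so the shares were near the background. At 18 h, 6 of the 35 rose and 22 fell, where 30.1% rose and 35.6% fell. The 3 transcripts lower on organ pipe rose at 18 h in these populations, and 2 of them rose at 9 h.

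Over all transcripts, the diet difference of OPNM at 9 h had a root mean square of 0.307 log2 units, the highest of the 12 combinations of population and time. San Quintin at 0 h followed with 0.278, and the other 10 lay between 0.116 and 0.186. With the shared axis removed the value for OPNM at 9 h was 0.143, and those of the other 11 lay between 0.0922 and 0.181. In number of calls, OPNM at 9 h had 38 and San Quintin at 0 h had 40 (0.275%), all 40 higher on organ pipe. Punta Prieta at 0 h had 9 (0.0619%). The other 11 combinations together had 68 calls, 51 of them higher and 17 lower on organ pipe.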

How the data were processed

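Total RNA from whole bodies was measured on one-colour 135K 12-plex NimbleGen arrays. The deposited table holds log2 values per transcript and array; the authors made them with RMA (robust multi-array average: background correction, quantile normalization between arrays, probe summary), per the submitters' processing notes, with no version given. No scanner intensities, detection calls or genome were used here, and the distance of a transcript from background is unknown. Sample labels identified all 95 columns, with 0 unmatched and no identical arrays. The number of arrays limits the precision.

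The fit, made in R 4.3.3 by limma 3.58.1, held 24 group means (71 residual degrees of freedom); contrasts were tested with the moderated test, two-sided, with Benjamini-Hochberg adjustment over 14528 transcripts, and called at an adjusted p under 0.05. Array-wide measures were compared by an exact permutation test. The fit was tested on simulated data, with noise drawn independently for each transcript and array. That noise lacked the shared axis, so the simulation cannot speak to calls that move with this axis. Named transcripts were the 2 most positive and 2 most negative called differences without overlap. For each difference between diet differences they were the most positive and the most negative among the called transcripts. The rule allowed more only where identifiers joined to gene names. The comparison, lists and tests were chosen with earlier results of these data known. Alternatives were the arrays in the fit, median centring, removal of the shared axis, array weights, leaving out the dimmest transcripts, a trended prior, a replicate block, leaving out 4 arrays of a second design order (1 of them an agria array of Punta Onah at 9 h, none from OPNM), and leaving out each array.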

Additional observations from a re-analysis of the deposited data

Results flagged for a closer look

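Tests of the difference between diet differences called some transcripts. The diet difference of OPNM at 9 h differed from that at 0 h for 8 transcripts, from that at 18 h for 2, and from the mean of the other 3 populations for 35. Against 0 h the change was -5.11 for FBtr0166500 and 1.35 for FBtr0168350; against 18 h it was 1.17 for FBtr0161575. Against the other populations it was -1.08 for FBtr0162870 and 1.84 for FBtr0163932. All of these are log2 differences, organ pipe minus agria.

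For FBtr0168350 on the agria arrays at 9 h, replicate 3 lay apart from the other 3 arrays, with a gap of 0.832 of the group's range. Among 20 groups of values checked this was the only one past the limit for 4 samples, and chance passes it in about 1 in 20 groups.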

How the results depend on the processing

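No value of a named transcript or array-wide difference changed sign under any alternative run. Leaving out arrays could not reverse the 4 transcripts named for the diet difference at 9 h, whose groups did not overlap. For the diet difference at 9 h (38 calls), limma called 6 transcripts from the 25 OPNM arrays, 2 from the 8 arrays alone, 9 after median centring (8 higher, 1 lower), 4 with the shared axis removed and 6 with the axis of the other 87 arrays removed. It called 7448 with array weights (3707 higher, 3741 lower; agria replicate 4 weighed 8.06 and replicate 3 weighed 0.212), 132 without the dimmest of 5 level classes, 103 without the second design order, and 0 without agria replicates 2 and 3 together, with 793 at an unadjusted p under 0.05. Leaving out 1 array gave 0 to 2186.

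Against 0 h (8 calls), the OPNM arrays alone gave 3, the axis removed 4, array weights 4358, and leaving out 1 array 2 (without agria replicate 3 at 9 h, agria replicate 2 at 0 h or organ pipe replicate 3 at 0 h) to 37 (without organ pipe replicate 1 at 0 h). Against 18 h (2 calls), limma gave 0 from the OPNM arrays alone, 0 with the axis removed and 0 with a trended prior, with 1757, 910 and 2771 at an unadjusted p under 0.05; array weights gave 1426, and leaving out 1 array gave 0 to 474 (without agria replicate 2 at 18 h). Median centring lowered this difference by 0.117 for every transcript and also gave 2 calls, 1 higher and 1 lower; 1 of them was among the 2 calls without centring, in the same direction. Against the other populations (35 calls), median centring gave 21, the axis removed 1, array weights 6900, no dim class 54, no second design order 1344, and leaving out 1 array 0 to 3410. The 11 other combinations (68 calls) gave 8051 with array weights; median centring gave 45 higher and 25 lower. Leaving out 1 array moved the count past 1.5 times in 16 of 48 fits at 9 h, in 15 of 25 against 0 h, in 15 of 25 against 18 h and in 20 of 31 against the other populations. The difference in array SD was 0.0439 to 0.0877 (exact permutation p = 0.0286 without agria replicate 1), and in axis score 22.8 to 41.2 (p = 0.0571 without any 1 organ pipe array). The cause was not tested.

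Replicate numbers did not pair the arrays: same-numbered deviations correlated at -0.0644, -0.117, 0.238 and 0.122, and 1 of 4 organ pipe arrays correlated best with its own number. The replicate block gave 48 calls at 9 h, 10 against 0 h, 2 against 18 h, 32 against the other populations and 61 in the other combinations.

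Of the transcripts named for the diet difference at 9 h, FBtr0166447 was called in 9 of 11 alternatives, FBtr0163932 in 6, and FBtr0174877 and FBtr0167617 in 5 each. Leaving out 1 array kept these calls in 46, 42, 41 and 27 of 48 fits.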

Other observations

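The diet difference of OPNM at 9 h varied with the mean level of a transcript. Over 5 classes of equal size by mean over all arrays, from the dimmest to the brightest, the median difference (organ pipe minus agria, log2) was -0.18, -0.25, 0.18, 0.09 and 0.04. Of the 35 transcripts called higher on organ pipe, these classes held 0, 4, 21, 7 and 3, and the 3 called lower were all in the brightest class. At an unadjusted p under 0.05, the second class had 414 higher and 965 lower transcripts, and the third had 831 higher and 341 lower.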
